A study of Mus musculus with 16 samples.

Results

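Pleiotrophin (Ptn) and midkine (Mdk) are the 2 members of a family of small secreted growth factors, and their transcripts were followed here across the hearts of 16 mice. The members were all array probes whose annotated symbol is Ptn or Mdk, which gave 5 of 25697 probes and 2 of 16593 named genes. The pair was chosen by its measured difference between female and male hearts in these same arrays, so the sex difference is described below without a test. Hearts came from 4 groups of 4 mice, named by sex and genotype: female cs-ERα-/-, male cs-ERα-/-, female WT and male WT. The cs-ERα-/- mice carry floxed exon 3 alleles of estrogen receptor α that are deleted by Cre recombinase under the cardiomyocyte promoter α-MHC, and WT mice carry the floxed alleles. All 16 mice were on the C57BL/6 background, were 18 weeks old, received a regular diet and were untreated. No WT mice with Cre are named, so the loss of the receptor and the presence of Cre cannot be told apart. RNA was extracted from pulverised heart tissue with all its cell types, and deletion in cardiomyocytes leaves the receptor gene of other cells intact. In such bulk tissue, fewer cells of a type and less RNA per cell cannot be told apart.

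Pleiotrophin and midkine bind heparin and the sulfated sugar chains of proteoglycans, through which they are held in the extracellular matrix and on cell surfaces. Both are abundant in the embryo and low in most adult tissues, and both return during tissue repair and inflammation. Their reported receptors include the phosphatase Ptprz1, the kinase Alk, the endocytic receptor Lrp1, nucleolin, integrins and the syndecans. Midkine was first found as a gene induced by retinoic acid, and pleiotrophin as a factor that promotes the outgrowth of neurites.

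Of the 5 probes, 3 were measurable. A probe entered the tests when 3 or more arrays of some group, of 4, gave it a detection p under 0.05, that is a signal above the negative control beads. The single Ptn probe (ILMN_2638114) was detected on 16 of 16 arrays. So were the Mdk probes ILMN_3158499, called the brighter probe below, and ILMN_1254450, the dimmer probe. The other Mdk probes, ILMN_3080012 and ILMN_3079236, were detected on 0 of 16 arrays. Their deposited signals ranged over both probes between -25.2 and -0.54, which leaves no level to compare.

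The promoter table made from RefSeq (GRCm38.p6) held 1 of the 2 genes, and the bases before the start of Ptn are shown because Ptn carries the larger of the differences between groups described below. They lie on the minus strand at chr6:36810180-36810429 and are printed in the direction of transcription.
Ptn promoter: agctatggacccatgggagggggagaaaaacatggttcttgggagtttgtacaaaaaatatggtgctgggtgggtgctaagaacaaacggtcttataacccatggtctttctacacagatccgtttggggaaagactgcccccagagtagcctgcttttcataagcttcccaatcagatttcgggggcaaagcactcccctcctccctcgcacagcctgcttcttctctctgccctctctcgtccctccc
The 250 bases were searched on both strands for 4 motifs, and matches would have been set in capitals. The estrogen response element GGTCANNNTGACC had 0 matches, and 0.0639% of the 32851 promoter windows of the same length held one. Its core GGTCA, which lies within the full element, also had 0 matches, against 35.2% of windows with at least 1. The GC box GGGCGG and the E box CANNTG had 0 matches each and occurred in 32.7% and 66.2% of windows. These counts say only that the letters are not in this window.

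One library stood apart from the others of its group. Female cs-ERα-/- replicate 4 had a log2 signal of 13.08 for Myl4, the myosin light chain of the atria, while the other 3 hearts of that group lay between 8.41 and 8.63. Mybphl, another gene of atrial muscle, was also highest there at 9.74. The atrial genes Sln and Myl7, detected on 2 of 16 arrays each and so outside the filter, had 11.47 and 10.13 there. The other hearts of that group had 4.84 to 5.16 for Sln and 4.58 to 4.83 for Myl7. Bmp10 was detected on 0 of 16 arrays. Nppa was lowest of its group there at 14.57. Its group medians were 14.89 and 14.96 in female and male cs-ERα-/- hearts, against 14.12 and 13.61 in WT hearts. Female WT replicate 1 had a Myl4 signal of 10.20. Ptn had its lowest log2 value of the group in female cs-ERα-/- replicate 4 (7.14), while Mdk lay between 8.28 and 8.32 in all 4 hearts of the group. Of the atrial genes that passed the filter, Mybphl and Myl4 were higher in females on average, and Nppa less so. Mybphl had log2 signals of 6.70 to 9.74 in female cs-ERα-/- hearts, against 5.84 to 6.77 in male cs-ERα-/- hearts, and of 6.28 to 6.63 in female WT hearts, against 5.10 to 5.77 in male WT hearts. The WT ranges of Mybphl did not overlap, while those of Myl4 did (8.03 to 10.20 in females and 8.06 to 8.20 in males). Over both genotypes the difference of females over males was 1.05 for Mybphl and 1.01 for Myl4, and 0.70 and 0.44 without female cs-ERα-/- replicate 4. For Nppa it was 0.19, and 0.24 without that library. The part of atrial tissue in the Ptn and Mdk values was not tested, and the sex and genotype differences of both genes, their correlation in females and the counts of called genes are also given without this library. The plot of both genes against Myl4 shows every heart.

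**Figure D1:**
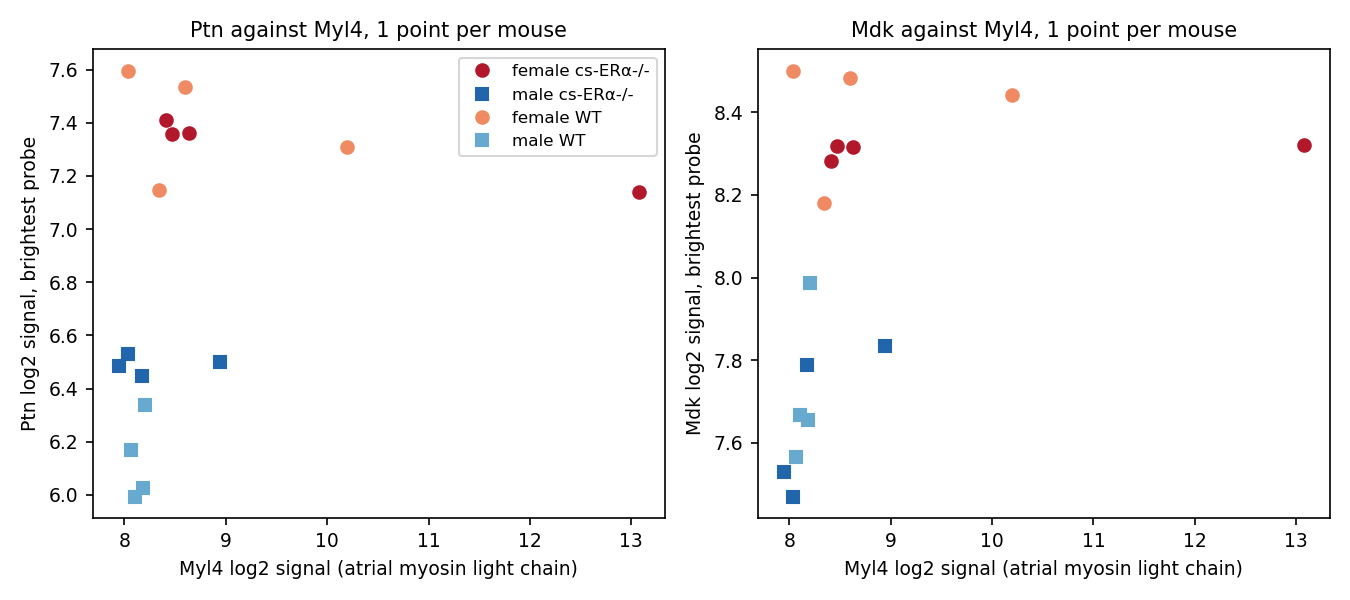
Log2 signal of Ptn (left panel) and of Mdk by its brighter probe (right panel) on the vertical axes against the log2 signal of Myl4 on the horizontal axes, 1 point per mouse, with colours for the 4 groups. Female cs-ERα-/- replicate 4 lies alone at a Myl4 value of 13.08, and female hearts lie above male hearts in both panels.

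In the remaining checks, Xist, the transcript of the inactive X chromosome, was detected in 8 of 8 female and 0 of 8 male hearts, and Eif2s3y, a Y-linked gene, in 0 of 8 female and 8 of 8 male hearts. The cardiomyocyte myosin gene Myh6 was detected on all 16 arrays. Neither of the 2 Esr1 probes, which stand for the targeted receptor, was detected on any array, so the deletion could not be read from these data. Between 11492 and 12610 probes were detected per array, and 12246 probes passed the filter.

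Ptn signal was higher in female than in male hearts in both genotypes. On the deposited linear intensity scale, the 4 female cs-ERα-/- hearts had signals of 137, 173, 147 and 133. The 4 male cs-ERα-/- hearts had 60.9, 56.9, 72.4 and 95.4. Female WT hearts had 132, 141, 182 and 169, and male WT hearts had 64.9, 45.4, 56.8 and 48.9. Every female heart was above every male heart, with 132 as the lowest female value and 95.4 as the highest male value. After background correction and quantile normalization, log2 signals averaged 7.36 ± 0.16 in females and 6.31 ± 0.22 in males (SD, n = 8 each), a difference of 1.05 (SE 0.08) or 2.06-fold. Within genotypes, the log2 difference between females and males was 0.83 (SE 0.11, 1.77-fold) in cs-ERα-/- mice and 1.26 (SE 0.11, 2.40-fold) in WT mice. Without female cs-ERα-/- replicate 4 the overall difference was 1.08 and that in cs-ERα-/- mice 0.89.

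Mdk signal was also higher in female hearts. The brighter probe gave signals of 282, 326, 299.7 and 320 in female cs-ERα-/- hearts, against 139.6, 159.8, 208 and 198 in male cs-ERα-/- hearts. Female WT hearts had 309, 282, 359 and 367, and male WT hearts had 198, 176, 209 and 195. The lowest female signal was thus 282 and the highest male signal 209, and the sexes did not overlap. Normalized log2 signals averaged 8.36 ± 0.11 in females and 7.69 ± 0.17 in males (SD, n = 8 each), which is a difference of 0.67 (SE 0.07) or 1.59-fold. The difference was 0.65 (SE 0.10) in cs-ERα-/- mice and 0.68 (SE 0.10) in WT mice, and 0.67 overall without female cs-ERα-/- replicate 4.

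The dimmer Mdk probe, which carries the accession of another Mdk transcript, gave signals of 69.0, 71.7, 65.4 and 77.1 in female cs-ERα-/- hearts and of 45.5, 27.4, 46.9 and 52.8 in male cs-ERα-/- hearts. It gave 88.2, 67.4, 70.4 and 73.7 in female WT hearts and 40.9, 39.7, 54.9 and 44.0 in male WT hearts. Deposited signals did not overlap between the sexes, while the normalized log2 signals did, since female WT replicate 4 (6.12) fell below male cs-ERα-/- replicate 1 (6.14) and male WT replicate 3 (6.30). The log2 difference between females and males was 0.52 (SE 0.11) or 1.44-fold, and 0.52 without female cs-ERα-/- replicate 4, so both probes put Mdk higher in females.

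**Figure D2:**
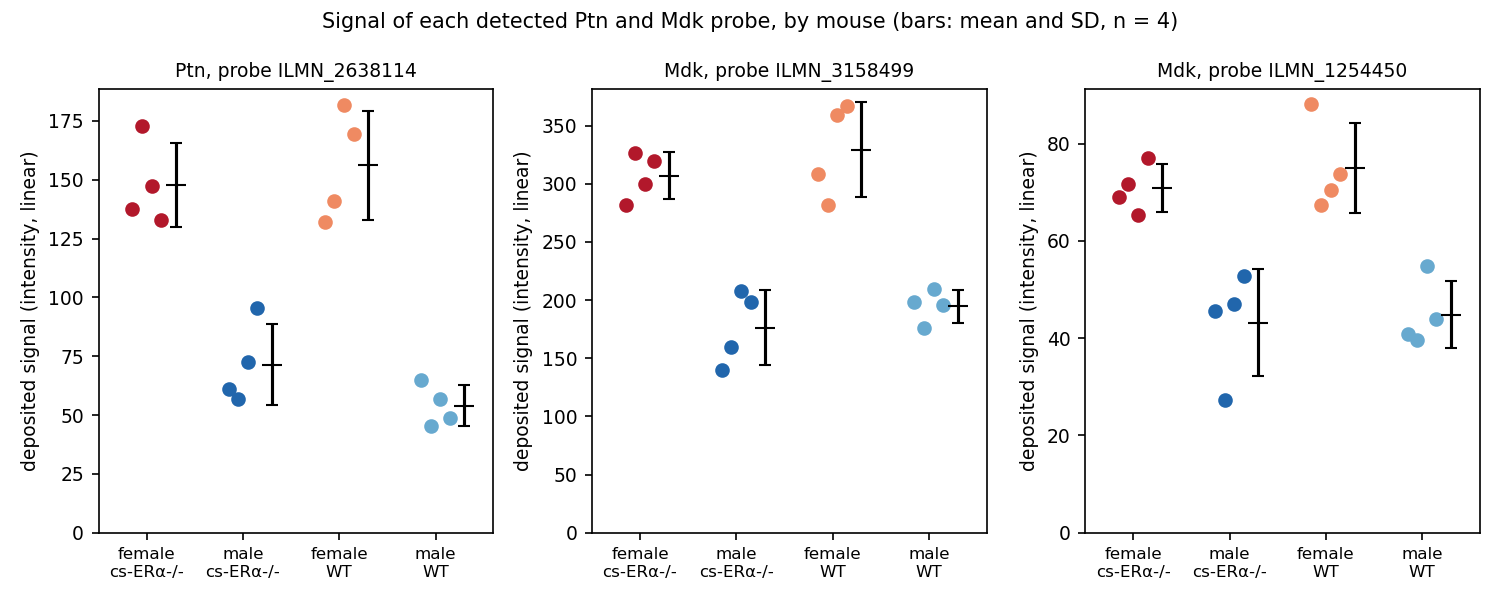
Deposited signal, a linear intensity that starts at 0 on each vertical axis, of the Ptn probe and of the brighter and dimmer Mdk probes, with a point for each of the 4 mice per group and a bar for the mean and SD. Female hearts of both genotypes lie above male hearts for each of the 3 probes, and the cs-ERα-/- and WT points of females intermix.

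Across the 12246 probes, Ptn held rank 9 for the difference of females over males, the brighter Mdk probe rank 21 and the dimmer probe rank 35. The atrial genes Mybphl and Myl4 held ranks 7 and 10, and ranks 15 and 50 without female cs-ERα-/- replicate 4. Nppa held rank 596, and rank 344 without that library. The ranks of Ptn and Mdk describe the values by which the pair was chosen. Of the 3 probes, 2 had no overlap between the 8 female and the 8 male log2 values, where 0.327% of all probes did. In the linear model of limma fitted over all probes, 1.27% of probes were called for sex at an adjusted p under 0.05.

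In females, the Ptn and Mdk signals of cs-ERα-/- and WT hearts overlapped. Ptn log2 signals averaged 7.32 ± 0.12 in female cs-ERα-/- and 7.40 ± 0.21 in female WT hearts (SD, n = 4 each) and differed by -0.08 (SE 0.11, 95% interval -0.32 to 0.16, adjusted p = 0.879). By its brighter probe, Mdk averaged 8.31 ± 0.02 in female cs-ERα-/- hearts, against 8.40 ± 0.15 in female WT hearts (SD, n = 4 each), and differed by -0.09 (SE 0.10, 95% interval -0.31 to 0.12, adjusted p = 0.822). None of the 3 probes was called in females, at an adjusted or at an unadjusted p under 0.05. Of all probes, 0.71% were called by the adjusted p of limma and 10.6% had an unadjusted p under 0.05. Without female cs-ERα-/- replicate 4 the differences were -0.02 for Ptn and -0.10 for Mdk.

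In males, Ptn was higher in each cs-ERα-/- heart than in any WT heart after normalization, and the difference was not called in the test across all probes. The male cs-ERα-/- hearts had log2 signals of 6.48, 6.45, 6.50 and 6.53, against 6.17, 6.03, 6.34 and 5.99 in male WT hearts. The difference was 0.36 (SE 0.11, 95% interval 0.12 to 0.59, 1.28-fold), with an unadjusted p of 0.00468 and an adjusted p of 0.165 by limma. On the deposited scale the 2 groups overlapped, since male cs-ERα-/- replicates 1 and 2 (60.9 and 56.9) lay below male WT replicate 1 (64.9). Of all probes, 3.55% were higher without overlap in male cs-ERα-/- hearts, and 0.955% were called in males in either direction. With no background correction before normalization the difference was 0.22, with an adjusted p of 0.254.

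Mdk showed no such separation in males. The brighter probe gave log2 signals of 7.53, 7.79, 7.83 and 7.47 in male cs-ERα-/- hearts and 7.57, 7.65, 7.99 and 7.67 in male WT hearts. The groups overlapped, and the difference was -0.06 (SE 0.10, 95% interval -0.28 to 0.15, adjusted p = 0.863 by limma). The dimmer probe differed by -0.03 (SE 0.15, adjusted p = 0.96).

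Averaged over the sexes, the genotype effect (cs-ERα-/- minus WT) was 0.14 for Ptn (SE 0.08, 95% interval -0.03 to 0.31, adjusted p = 0.386). It was -0.08 for Mdk by the brighter probe (SE 0.07, 95% interval -0.23 to 0.07, adjusted p = 0.633) and -0.05 by the dimmer probe (SE 0.11, adjusted p = 0.855). Thus 0 of 3 probes were called for genotype by limma, where 3.74% of all probes were called. At an unadjusted p under 0.05 there were also 0 of 3, against 17.6% of all probes. Without female cs-ERα-/- replicate 4, the effect was 0.17 for Ptn (adjusted p = 0.303) and -0.08 for Mdk (adjusted p = 0.659).

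The genotype effect on Ptn in females minus that in males was -0.44 on the log2 scale (SE 0.16, 95% interval -0.77 to -0.10), which is also the difference between the sex differences of cs-ERα-/- and WT mice. Its unadjusted p was 0.0124 and its adjusted p 0.999. No probe on the array was called for this interaction by limma or by an ordinary linear model (percent called 0), and 319 of 8581 genes (3.72%) had an unadjusted p under 0.05. Without female cs-ERα-/- replicate 4 the interaction of Ptn was -0.38 with an unadjusted p of 0.0321. For Mdk it was -0.03 (SE 0.15, adjusted p = 0.999). The 4 group means of Ptn thus ran, from high to low, from female WT (7.40) over female cs-ERα-/- (7.32) and male cs-ERα-/- (6.49) to male WT (6.13). The female groups overlapped, and the male groups differed without passing the adjusted test. For Mdk the order was female WT (8.40), female cs-ERα-/- (8.31), male WT (7.72) and male cs-ERα-/- (7.66), with overlap within each sex.

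**Figure D3:**
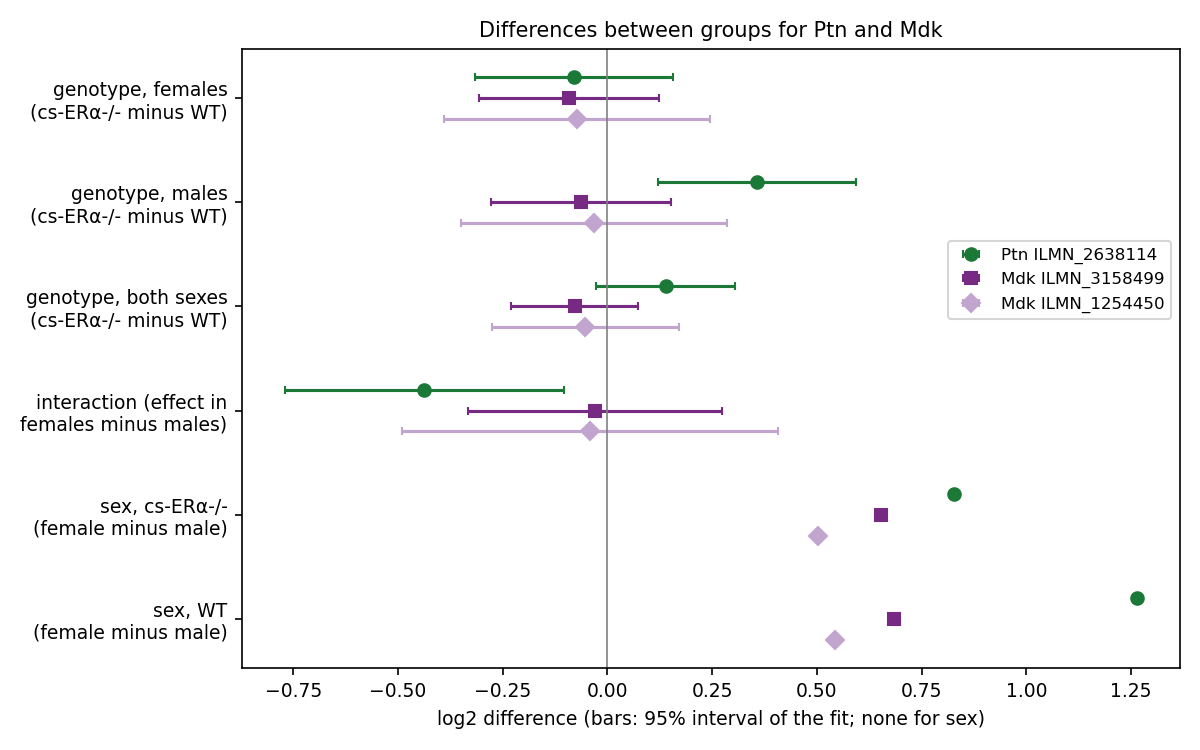
Log2 differences (points) on the horizontal axis for the Ptn probe and both detected Mdk probes, with the comparisons down the vertical axis and bars for the 95% intervals of the genotype differences and interactions. The sex differences, by which the pair was chosen, are drawn without intervals, and among the genotype differences only that of Ptn in males (0.36) has an unadjusted interval that leaves out 0.

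The correlation of Ptn and Mdk over mice was taken within each sex, since the sexes form separate clusters. In the 8 females, Pearson's r was 0.741 (exact permutation p = 0.0393, adjusted over both sexes 0.0786) and Spearman's rho 0.452 (exact permutation p = 0.267, adjusted 0.535). In the 8 males, r was 0.0309 (exact permutation p = 0.941, adjusted 0.941) and rho -0.214 (exact permutation p = 0.619, adjusted 0.619). All tests were two-sided, and the relation did not pass the adjusted threshold in either sex. Whether r differed between the sexes was not tested.

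Among the 8 females, both genes were highest on the normalized log2 scale in WT replicate 3, and Mdk was lowest in WT replicate 4, where the Ptn value (7.15) was next to the lowest (7.14). On the deposited scale that heart had the highest Mdk signal (367), so its place depended on the normalization. Leaving out the 2 mice farthest from the median of Ptn gave r = 0.721 in females (n = 6, exact permutation p = 0.103) and r = -0.0924 in males (n = 6, exact permutation p = 0.842). Leaving out each mouse in turn gave r of 0.623 to 0.828 in females and -0.0996 to 0.298 in males. In females r was 0.623 without WT replicate 3 (n = 7, exact permutation p = 0.139, adjusted 0.278). It was also 0.623 without WT replicate 4 (n = 7, exact permutation p = 0.152, adjusted 0.303). Without female cs-ERα-/- replicate 4 it was 0.807 (n = 7, exact permutation p = 0.0282, adjusted 0.0563). With the dimmer Mdk probe, which was added after the values were seen, r was 0.298 in females and 0.199 in males. As deviations from the mean of each genotype, r was 0.723 in females (exact permutation p = 0.0868) and 0.426 in males (exact permutation p = 0.378).

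**Figure D4:**
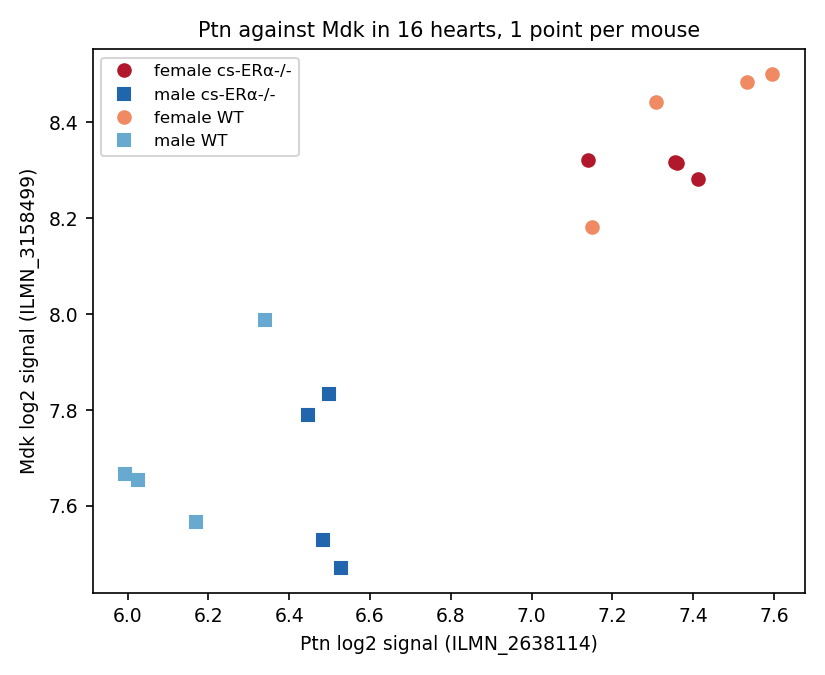
Log2 signal of Mdk by its brighter probe (vertical axis) against that of Ptn (horizontal axis), 1 point per mouse, circles for females and squares for males. The female and male hearts form separate clusters, within which Pearson's r was 0.741 and 0.0309.

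The genes whose log2 values ran most like those of Ptn over the 16 arrays were largely genes with a sex difference of their own, described here without a test. Among 8580 other genes, the highest Pearson r with Ptn belonged to Xist (0.922), followed by Eif2s3x (0.909), Mdk (0.908), Eef1d (0.895) and Kdm6a (0.889). For Mdk the leading genes were Xist (0.924), Ptn (0.908), Kdm6a (0.902), C1qtnf2 (0.901) and Kcne1 (0.901). Eif2s3x and Kdm6a are X-linked genes that escape inactivation, and Kcne1 encodes a subunit of a potassium channel.

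Once each array was expressed as its deviation from the mean of its group, the likeness of the pair was no longer among the highest. Ptn and Mdk then correlated at 0.506 over 16 arrays, and Mdk held rank 446 for Ptn while Ptn held rank 640 for Mdk. The genes most like Ptn on this scale were Pth1r (0.862), a receptor for parathyroid hormone, Cops3 (0.855), Tmem135 (0.847), Abca8b (0.827) and Dapk2 (0.816). Those most like Mdk were Selenon (0.933), a selenoprotein of muscle, C1qtnf2 (0.870), Flywch2 (0.869), Eif1b (0.863) and Vrk2 (0.857). Each set of 5 is the top of 8580 values and was not tested. Of those named for Ptn, Pth1r, Abca8b and Tmem135 were dim, with genotype means of 5.52 to 6.17 on the log2 scale.

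Genes related to the pair as receptors, signal partners, enzymes of sugar chains, retinoic acid genes or other heparin-binding factors were counted beside all genes. Of the 138 genes in these 5 lists, 82 were tested by their brightest probe, 125 had a probe with their symbol, and 1 was called for genotype while 0 were called for sex by limma. The share of all 8581 genes called was 4.11% for genotype, 1.41% for sex and 1.1% for genotype in males. With 82 genes tested, counts of 1 and 0 do not set the lists apart from these shares. At an unadjusted p under 0.05 there were 10 of 82 for genotype and 14 of 82 for sex, where 18.5% and 13.3% of the 8581 genes reached it, which is also the background of the unadjusted counts per list below. The median log2 difference of the 82 genes was -0.02 for genotype and 0.01 for sex, against -0.0041 and 0.0034 over all genes. Without female cs-ERα-/- replicate 4, the counts were again 1 for genotype and 0 for sex.

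**Figure D5:**
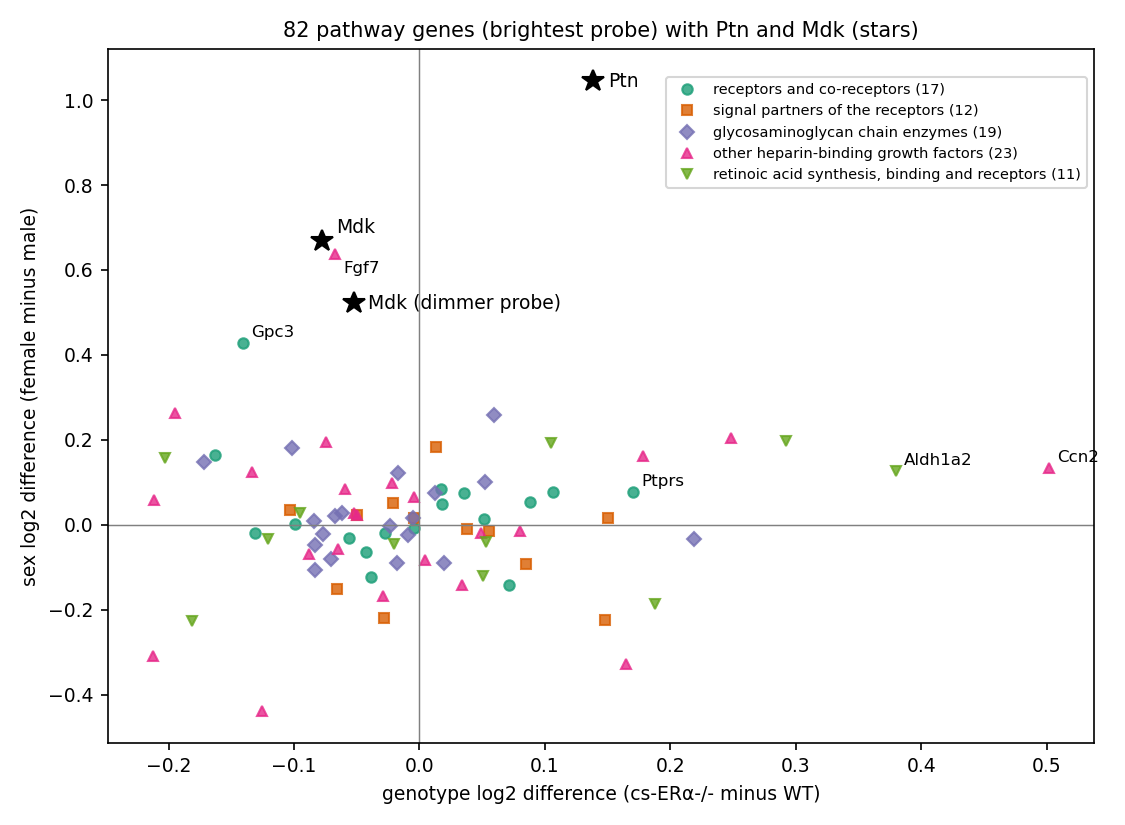
Log2 sex difference (female minus male, vertical axis) against log2 genotype difference (cs-ERα-/- minus WT, horizontal axis) of 82 genes of the 5 lists, with 1 symbol shape and colour per list and stars for the Ptn and Mdk probes. The stars lie at sex differences of 1.05, 0.67 and 0.52, and of the listed genes only Fgf7 and Gpc3 come above 0.4, while Ccn2 lies farthest right at 0.50.

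Receptors and co-receptors were measured for 17 of 31 listed genes, and 0 were called for genotype or sex (2 and 1 at an unadjusted p under 0.05). Ptprz1 had no probe of that name. Alk and the syndecan Sdc1 were detected on 0 of 16 arrays. Nucleolin (Ncl), a nucleolar protein that binds both factors at the cell surface, had log2 signals of 9.30 ± 0.06 in cs-ERα-/- and 9.28 ± 0.11 in WT hearts (SD, n = 8 each). Lrp1 had 5.84 ± 0.23 in cs-ERα-/- and 5.80 ± 0.16 in WT hearts (SD, n = 8 each). The groups overlapped for both, and the adjusted p was 0.899 for Ncl and 0.907 for Lrp1.

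Among the syndecans, transmembrane proteoglycans that carry heparan sulfate, Sdc3 differed by -0.10 between cs-ERα-/- and WT (SE 0.05, adjusted p = 0.28 by limma). Sdc4 differed by -0.0039 (SE 0.09, adjusted p = 0.99). Ptprs, a receptor phosphatase that binds sulfated proteoglycan chains, differed by 0.17 (SE 0.06, adjusted p = 0.119). For sex, the glypican Gpc3, a proteoglycan anchored to the membrane by a lipid, had the largest absolute difference of the receptor list. Its log2 signal was 8.12 to 8.57 in female cs-ERα-/- hearts, 7.43 to 8.28 in male cs-ERα-/- hearts, 8.32 to 8.83 in female WT hearts and 7.74 to 8.25 in male WT hearts. The difference between females and males was 0.43 (SE 0.11, adjusted p = 0.0693), which lies on the same side as Ptn and Mdk and did not pass the threshold.

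Signal partners downstream of the receptors were tested for 12 of 20 genes, and 0 were called for genotype or sex (2 at an unadjusted p under 0.05 in each). Those with the smallest genotype p were β-catenin (Ctnnb1), a substrate of Ptprz1 in the pleiotrophin pathway, with a difference of 0.15 (SE 0.05, adjusted p = 0.0858), and Pik3r1, a regulatory subunit of phosphoinositide 3-kinase, with -0.10 (SE 0.05, adjusted p = 0.279). Enzymes that build or modify glycosaminoglycan chains, the sugars to which both factors bind, were tested for 19 of 37 genes, and 0 were called (0 for genotype and 2 for sex at an unadjusted p under 0.05). Csgalnact1, which starts chondroitin chains, differed by 0.22 (SE 0.13, adjusted p = 0.414) between cs-ERα-/- and WT, and Chpf, which extends them, by -0.17 (SE 0.11, adjusted p = 0.432).

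Retinoic acid genes were listed because midkine responds to retinoic acid, and 0 of 11 tested genes were called (3 for genotype and 1 for sex at an unadjusted p under 0.05). Aldh1a2, the main enzyme of retinoic acid synthesis in the embryonic heart, averaged 5.87 ± 0.22 in cs-ERα-/- hearts, against 5.49 ± 0.24 in WT hearts (SD, n = 8 each), and differed by 0.38 (SE 0.12, adjusted p = 0.0699). The retinal reductase Rdh11 differed by 0.29 (SE 0.11, adjusted p = 0.147). The receptor gene Rarb differed by 0.05 (SE 0.08, adjusted p = 0.794).

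Of the other growth factors and matrix factors that bind heparin, 23 of 28 were tested, 1 was called for genotype and 0 for sex (3 and 8 at an unadjusted p under 0.05). The called gene was Ccn2, connective tissue growth factor. It was higher in cs-ERα-/- hearts by 0.50 (SE 0.11, 1.42-fold, adjusted p = 0.00781 by limma). The call was lost in an ordinary linear model without moderated variances, with an adjusted p of 0.0829. In males its log2 signal was 13.03 to 13.39 in cs-ERα-/- hearts and 12.04 to 12.73 in WT hearts, with a difference of 0.80 (SE 0.15, adjusted p = 0.00838). In females it was 12.85 to 13.31 in cs-ERα-/- hearts and 12.51 to 13.30 in WT hearts, with a difference of 0.20 (SE 0.15, adjusted p = 0.68). The genotype effect of Ccn2 over both sexes was 0.53 without female cs-ERα-/- replicate 4 (adjusted p = 0.00774). The male and female effects of Ccn2 differed by -0.60 (SE 0.21, unadjusted p = 0.0104, adjusted p = 0.999), so a difference between the sexes did not pass the test. Fgf7, a fibroblast growth factor of mesenchymal cells, differed by 0.64 between females and males (SE 0.18, adjusted p = 0.0971).

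Among the cell type markers, calls for sex in the main fit fell in the fibroblast list only. Calls for genotype fell in every list but the cardiomyocyte, endothelial and adipocyte lists. Of all 8581 genes, 1.41% were called for sex and 4.11% for genotype. Of 17 fibroblast markers tested, 4 were higher in females and 0 lower, with Lum at 0.56 (SE 0.08, adjusted p = 0.000231), Col14a1 at 0.52 (SE 0.09, adjusted p = 0.00381), Mfap5 at 0.34 (SE 0.08, adjusted p = 0.0304) and Tcf21 at 0.34 (SE 0.08, adjusted p = 0.0286). Of the 17 sex differences, 13 were positive and 4 negative, among the latter Dcn at -0.03. Some of the called genes are known from sex differences of these same arrays, so the count is not independent evidence. Without female cs-ERα-/- replicate 4 the count was 2 of 17, and over all single arrays left out it was 2 to 7. For genotype, 2 of the 17 were higher in cs-ERα-/- hearts and 0 lower. Summed over the 17 genes, linear signal ranged from 34205 to 36468 in female cs-ERα-/-, from 30555 to 36778 in male cs-ERα-/-, from 29961 to 33577 in female WT and from 29405 to 32179 in male WT hearts. This sum is weighted to abundant genes such as Dcn. The log2 signal of Tcf21 was 8.32 to 8.63 in female and 7.87 to 8.37 in male cs-ERα-/- hearts, with overlap. In WT hearts it was 8.39 to 8.73 in females and 8.04 to 8.35 in males. The log2 signal of Lum was 11.12 to 11.37 in female cs-ERα-/- and 10.54 to 11.04 in male cs-ERα-/- hearts, and 10.85 to 11.31 in female WT and 10.32 to 10.79 in male WT hearts. The part of fibroblasts in the Ptn and Mdk differences was not tested.

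For genotype, 10 of 14 macrophage and myeloid markers were higher in cs-ERα-/- hearts and 0 lower by limma, with the same count without female cs-ERα-/- replicate 4 and 5 of 14 under median scaling. Their summed signal was 25375 to 27639 in female cs-ERα-/- and 24794 to 34212 in male cs-ERα-/- hearts, against 17257 to 21366 in female WT and 20292 to 24660 in male WT hearts. For sex, 0 of these 14 were called (7 at an unadjusted p under 0.05), and all 14 differences were negative. The part of these cells in the Ptn difference of males was not tested. Of the cardiomyocyte markers, 0 of 13 were called for genotype or sex (1 and 0 at an unadjusted p under 0.05), and of the Schwann cell and nerve markers 2 of 8 were called for genotype and 0 of 8 for sex. For the endothelial list 0 of 12 were called for either. The epicardial list had 1 of 5 called for genotype, the smooth muscle list 1 of 10, the lymphocyte list 1 of 2 and the adipocyte list 0 of 3, and none of these was called for sex. Of all 8581 genes, 4.11% were called for genotype and 1.41% for sex. With so few genes tested, a single call says little about a list.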

How the data were processed

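Cardiac RNA of 16 mice was hybridised to Illumina MouseRef-8 arrays, 1 array per mouse, and the labels' sex and genotype gave the groups. The members and the gene lists were chosen with earlier results of these data known. The authors imported the arrays into Genome Studio and averaged replicate beads. The deposited non-normalized signal is a linear intensity with background already subtracted, since values fall below 0, and the deposited p-value beside it is the detection p against negative control beads. The authors' normalized values are intensities after cubic spline normalization, also on a linear scale. The genome build and probe sequences are not given in the sources used here, and RefSeq lists a midkine pseudogene whose part in the Mdk signals was not tested. Arrays had median signals of 17.2 to 25.6 and correlated pairwise at 0.988 to 0.995, and their number limits the precision. Replicates are separate mice by their labels.

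The neqc function of limma 3.58.1 (R 4.3.3; offset 16) corrected the signals for background, quantile-normalized them and took log2. The filter left 12246 of 25697 probes, among which 11557 had a symbol and stood for 8581 genes (1719 of all probes have none). The brightest probe left stood for its gene. With limma, group means were fitted to all these probes with no chip term and with an intensity trend, and p-values were adjusted by Benjamini-Hochberg over all of them. No label gives the chip of an array, although the methods name 2 chips, so a chip effect was not tested. The model was also run on simulated data with independent noise in each probe and array. Such data hold no deviation shared between arrays, so they do not test for the effect of one. Correlations were taken within sex on log2 values, with exact permutation tests in scipy 1.17.1.

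Genes were named by rule: all Ptn and Mdk probes, every listed gene called, in lists without a call the 2 genes of smallest genotype p, a few receptors, and the 5 genes most alike to each member. Other genes (Gpc3, Fgf7, Rarb, the marker genes called and the atrial genes) were chosen after their values were seen. Alternatives were median scaling, no background correction, the values the authors normalized, other filters, other variance models, the replicate number as a block, each array left out, and the dimmer Mdk probe. The fold changes and p-values of the study's own tables were not used.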

Additional observations from a re-analysis of the deposited data

Results flagged for a closer look

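In 168 groups of 4 hearts, 1 heart's gap to its nearest neighbour was compared with the whole range of its group, and 7 groups had a share above Dixon's 95% critical value for groups of 4, where chance alone gives about 1 in 20. For Mdk by its brighter probe, female cs-ERα-/- replicate 2 was lowest of its group (8.28, next 8.32, share 0.859), in a group whose SD was 0.02. No Ptn group was among the 7. Aldh1a2 was lowest in male cs-ERα-/- replicate 2 (5.52, next 5.91, share 0.839). Acta2, smooth muscle actin, was lowest in female cs-ERα-/- replicate 4 (12.78, next 13.43, share 0.886), the library with the high Myl4 signal. Chpf was lowest in male WT replicate 1 (6.28, next 6.64, share 0.88). C1qtnf2, Selenon and Eif1b were included because they ran most like Mdk over deviations from the group means. A heart that is extreme both in them and in Mdk thus follows from that choice. C1qtnf2 was highest in male WT replicate 3 (8.37, next 8.10, share 0.854), where Mdk was also highest of its group. Selenon (9.73, next 9.97, share 0.972) and Eif1b (11.55, next 11.70, share 0.851) were lowest in female WT replicate 4, where both Mdk probes and Ptn had their lowest values of that group on the normalized log2 scale. On the deposited scale the brighter Mdk probe was highest of the group there (367), and neither Ptn (169) nor the dimmer Mdk probe (73.7) was lowest.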

How the results depend on the processing

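The genotype effects and interactions of Ptn and Mdk stayed on their side of the threshold under every alternative run, and the sex differences stayed positive. No called value changed sign, and 95 values of 23 results without a call did. Among these, the Mdk interaction (-0.03) was 0.03 under median scaling and the Mdk genotype effect in males (-0.06) was 0.03 without male WT replicate 3. The Ptn sex difference was 1.23 with the authors' normalized values, in either variance model, and 0.72 without background correction, where a constant added to the signals compresses differences of dim probes. Over the alternatives that kept all arrays, the genotype effect of Ptn in males was 0.22 to 0.46 (adjusted p 0.123 to 0.688) and its interaction -0.55 to -0.28. Leaving out 1 array gave 0.31 to 0.43 (adjusted p 0.103 to 0.369) and -0.52 to -0.37. Leaving out 1 array also gave a Ptn sex difference of 1.01 to 1.09 and one of 0.64 to 0.71 for Mdk.

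Median scaling called 131 probes for genotype, 77.1% of them higher against 65.1% of 458, and 79 for sex, 65.8% of them higher against 50.3% of 155. It called 1 pathway gene for sex, Gpc3. An ordinary linear model called 80 probes for sex, or 82 on the authors' values, and 0 pathway genes for genotype on both. Counting any probe of a gene, 2 pathway genes were called for genotype (Ccn2, Magi3) and 2 for sex (Gpc3, and Fgf10, which was lower in females). Leaving out 1 array gave 1 to 2 pathway genes for genotype and 0 to 1 for sex. The second genotype call was Ctnnb1 without male WT replicate 1, and Aldh1a2 without male WT replicate 2 or male cs-ERα-/- replicate 2. The sex call was Gpc3 without male cs-ERα-/- replicate 1 or 2, and Fgf7 without male cs-ERα-/- replicate 3 or female cs-ERα-/- replicate 1. Among the marker lists, the counts for genotype fell to 5 of 14 for macrophages under median scaling, and to 0 for the fibroblast (2), epicardial (1) and nerve (2) lists. An ordinary linear model lost the smooth muscle and lymphocyte calls (1 each). The 4 fibroblast markers called for sex were 2 to 5 over the alternatives. Macrophage markers, with 0 called for sex in the main fit, had 0 to 3 over the alternatives and 0 to 2 with 1 array left out. The nerve list had 0 to 1 called for sex with 1 array left out. The cause was not tested.

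No label says that a replicate number marks a shared litter or day, so the main fit did not take the numbers as pairs. Deviations of same-numbered hearts correlated at -0.11 to 0.20, over 0.1 in 4 of 16 pairs, which were the 4 pairs of replicate 4. A heart correlated best with its own number in 15 of 32 comparisons with another group, each with 4 numbers to choose from. The best match of a replicate 4 heart was always replicate 4. Hearts with that number thus shared a part of their deviations, and its source was not tested. With the replicate number as a block, 537 probes were called for genotype and 178 for sex, and the genotype effect of Ptn in males had an adjusted p of 0.123. Ptn in males and the dimmer Mdk probe lay near background, which limits the precision of their folds.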
